A study of Mus musculus with 20 samples.

Results

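GRA knockin mice and wild-type mice were compared 6 h after an injection of dexamethasone, from RNA of the hippocampus. The 10 libraries used were chosen by their labels alone, as all those whose treatment is dexamethasone, out of 20 in the series: 5 of the knockin and 5 of the wild type, each a biological replicate per the labels. The knockin mice are homozygous for an Nr3c1 gene whose exon 2 keeps the start codon of the full-length glucocorticoid receptor, GRA, and carries ATC in place of the start codons of the 7 shorter translational forms. The wild-type mice have the unmodified gene and can make every form. All 10 were male, of the C57BL/6 strain, adrenalectomized at about 2.5 months of age so that they lacked their own adrenal glucocorticoids, and injected intraperitoneally with dexamethasone at 1 mg per kg 2 weeks later. The remaining 10 mice, 5 per genotype, had surgery at the same age and received phosphate-buffered saline (PBS) 2 weeks later. They serve here to show how large the response itself was and how the genotypes differed without hormone. The altered codons are present in every cell of the animal, and counts summed over the gene cannot show which protein forms were made.

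The glucocorticoid receptor is a transcription factor that waits in the cytoplasm bound to heat shock proteins and their partners. On binding hormone it enters the nucleus, where it attaches to DNA as a dimer at short palindromes or acts through other factors, so that some genes are induced and others repressed. The hippocampus carries a high density of this receptor and takes part in the feedback that limits the stress response. In the same messenger RNA, downstream start codons yield receptors with shorter N-terminal domains, the region that holds the main activation surface.

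The dexamethasone libraries held 12945784 to 48267708 read pairs assigned to genes, with the deepest in the knockin (replicate 1) and the shallowest in the wild type (replicate 4). Markers of the labelled tissue were abundant in both groups. Camk2a, the kinase of excitatory synapses, averaged 5219.7 ± 446 counts per 1000000 assigned reads (CPM) in knockin and 5159.6 ± 211 CPM in wild-type libraries (SD, n = 5 each), and Rgs14, which marks CA2 neurons, averaged 105 ± 8.09 CPM in knockin and 105 ± 6.95 CPM in wild-type libraries. Some libraries stood apart. The values of single genes are scaled by each library's total and its normalization factor, and marker sums by the total alone. Summed over 14 choroid plexus markers, knockin replicate 2 held 2135 CPM, against 207.3 to 368.6 CPM in the other knockin libraries and 219.5 to 678.5 CPM in the wild type. Summed over 15 markers of vessel walls and meninges, the knockin libraries held 332.2 to 365.0 CPM, against 457.3 and 427.1 CPM in wild-type replicates 3 and 5 and 328.6 to 381.9 CPM in the other wild-type libraries. In 16 myelin markers the knockin libraries held 5361 to 6401 CPM, against 4266 CPM in wild-type replicate 3 and 5967 to 6164 CPM in the other wild-type libraries.

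Under dexamethasone no gene passed the test for a difference between the knockin and the wild type. EdgeR's quasi-likelihood test, adjusted over 18648 genes with a threshold of 0.05, called 0 genes (0%), and the lowest adjusted p over all genes was 0.979. At an unadjusted p below 0.05 there were 828 genes, 4.44% of those tested. DESeq2's Wald test, on 39194 genes, and limma-voom, on 18648, also called 0 genes, with 800 and 1072 below 0.05 before adjustment. Fitted to the 10 dexamethasone libraries alone, edgeR called 1 gene, Cd74, which is described with its group. Every knockin value lay above every wild-type value for 78 genes (0.418% of those tested) and below every wild-type value for 69 genes (0.37%), 147 in all (0.788%).

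How large a difference could still exist is given by the 95% interval of each gene's log2 fold change, knockin over wild type. That interval lay wholly inside 1.5-fold in either direction for 15037 genes (80.6%) and wholly inside 2-fold for 17786 (95.4%), and it reached past 2-fold for 862 (4.62%). By 2 one-sided tests against each bound, adjusted over all genes, the difference was held inside 1.5-fold for 15645 genes (83.9%) and inside 2-fold for 18083 genes (97%). The median size of the estimated change was 0.06 on the log2 scale, beside a median standard error of 0.08. The precision followed the level. Among the 2510 genes with a mean log2 CPM below 0 the interval was inside 2-fold for 72%, and among the 3503 genes at 6 or more it was inside 2-fold for 99.9% and inside 1.5-fold for 99.7%. Of the 14328 genes with a mean log2 CPM of at least 1, 74 had an interval that reached past 2-fold. These 74 included 8 choroid plexus, 7 liver, 5 vessel-wall and meningeal, 4 hemoglobin and 3 MHC class II genes, with the transthyretin gene Ttr counted under choroid plexus and under liver. Of the 14328 genes 5 were estimated at more than 2-fold, namely Ttr, Slc4a5, Tmem72, Mfrp and Cd74. Tmem72, Mfrp and Slc4a5 were picked out here after their values were seen.

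**Figure D1:**
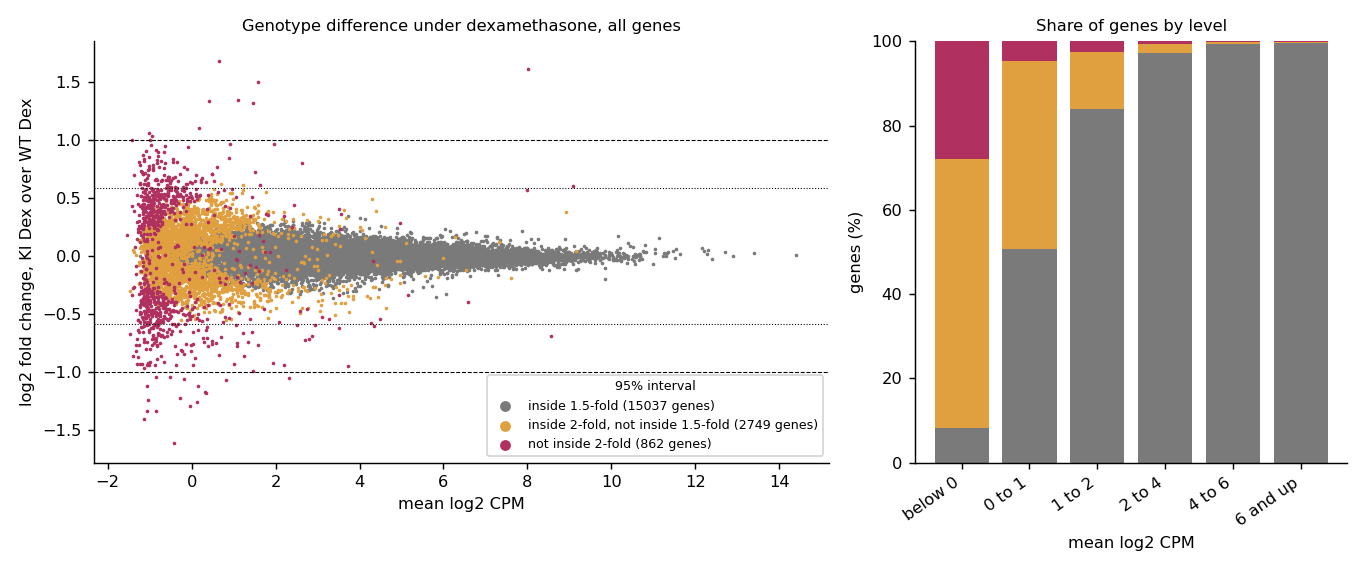
Left, log2 fold change of knockin over wild-type mice under dexamethasone (y axis) against mean log2 CPM (x axis) for 18648 genes, coloured by whether the 95% interval lies inside 1.5-fold (15037 genes) or inside 2-fold, with dotted lines at 1.5-fold and dashed lines at 2-fold. Right, the percentage of genes in each class by level; the share that reaches past 2-fold shrinks as the level rises.

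The distances between libraries were alike within and between the genotypes. The root mean square log2 difference over genes had a median of 0.334 for the 10 pairs of knockin libraries, 0.346 for the 25 pairs of a knockin and a wild-type library and 0.368 for the 10 pairs of wild-type libraries. Across genes, the mean log2 CPM of the knockin and the wild type had a Pearson correlation of 0.998 over 18648 genes, which share the annotation, the tissue and the processing and are not independent replicates.

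The genes that respond to dexamethasone were bounded too. Responders were taken from the average of the responses of both genotypes, a contrast that does not use the difference between them. Dexamethasone against PBS called 3393 genes by that measure (18.2% of those tested), 1825 higher (9.79%) and 1568 lower (8.41%). Among the 1825 induced genes the median genotype difference under dexamethasone was -0.01 on the log2 scale, with 1799 intervals (98.6%) inside 2-fold and 0 genes called. Among the 1568 repressed genes the median was -0.01, with 1509 intervals (96.2%) inside 2-fold and again 0 called. Among the 15255 genes that were not called as responders, whose median level was lower, 94.9% were inside 2-fold. At an unadjusted p below 0.05 the counts were 85 and 91, or 4.66% and 5.8% of the induced and the repressed genes.

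The known targets of the receptor were examined gene by gene in a list of 38, of which all 38 were tested. For 34 of these the average response of both genotypes was called higher and for none lower, with a median log2 fold change of 1.17 over those 34. Of all genes tested 9.79% were called higher. The list was chosen with earlier results of these data known, so its responses are a description. Bcl6, Cebpb, Cebpd and Lcn2 did not pass. The genotype difference under dexamethasone had a median of 0.01 over the 38, with 24 above and 14 below 0, against a median of 0.00 over all genes. Of the 38 intervals 30 lay inside 1.5-fold and 37 inside 2-fold, the exception being Lcn2.

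The promoters of 3 targets show where the receptor's DNA palindrome stands in genes whose values follow. The motif searched was GNACA and TGTNC with 3 bases of any kind between them, a loose form of the receptor's binding palindrome, where N is any base. It reads the same on both strands, so 1 search covers both. Among RefSeq promoter windows of the GRCm38.p6 build, each 250 bases before to 50 bases after a gene's start, 156 of 32851 (0.475%) hold it. Of the 38 listed genes 35 have such windows, 51 in all, and 6 windows of 5 genes hold the motif: Sgk1, Fam107a, Mt1, Map3k6 and Txnip. The windows of the first 3 of these genes are printed 5′ to 3′ on the gene's strand with the motif in capitals, from chr10:21993640-21993939 (+) for Sgk1, chr14:8309728-8310027 (-) for Fam107a and chr8:94178839-94179138 (+) for Mt1. A match describes these letters and does not show that the receptor is bound there.
Sgk1: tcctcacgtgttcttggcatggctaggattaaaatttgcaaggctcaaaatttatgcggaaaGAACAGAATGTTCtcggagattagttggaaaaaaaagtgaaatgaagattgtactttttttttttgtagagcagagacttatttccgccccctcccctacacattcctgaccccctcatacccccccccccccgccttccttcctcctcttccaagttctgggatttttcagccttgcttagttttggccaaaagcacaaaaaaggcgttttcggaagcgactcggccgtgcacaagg
Fam107a: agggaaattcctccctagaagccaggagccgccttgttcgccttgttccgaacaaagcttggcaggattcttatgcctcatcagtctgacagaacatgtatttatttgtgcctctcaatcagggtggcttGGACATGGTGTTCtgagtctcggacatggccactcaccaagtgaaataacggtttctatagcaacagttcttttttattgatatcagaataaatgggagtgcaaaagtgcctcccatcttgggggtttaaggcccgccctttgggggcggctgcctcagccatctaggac
Mt1: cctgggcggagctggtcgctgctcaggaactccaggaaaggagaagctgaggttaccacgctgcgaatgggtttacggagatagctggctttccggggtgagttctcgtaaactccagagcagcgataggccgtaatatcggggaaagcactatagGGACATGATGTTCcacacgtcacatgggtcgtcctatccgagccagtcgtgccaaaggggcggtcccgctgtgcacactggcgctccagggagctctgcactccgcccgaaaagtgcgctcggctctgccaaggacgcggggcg

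Plin4, which encodes a coat protein of lipid droplets, had the smallest allowed difference of the called targets relative to its response. It stood at 58.8, 66.9, 60.9, 50.1 and 56.9 CPM in the 5 knockin mice and at 62.4, 70.5, 36.5, 59.1 and 48.4 CPM in the 5 wild-type mice. The groups overlapped, and the lowest value was that of wild-type replicate 3. The genotype difference was 0.09 on the log2 scale (SE 0.14, 95% interval -0.20 to 0.38), beside a response to dexamethasone of 5.52 averaged over the genotypes. The interval therefore allows a difference of at most 6.94% of the response. Here and below such percentages are ratios of log2 fold changes, not shares of the induced amount.

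The other genes with the largest responses had overlapping groups as well. Lao1, an L-amino acid oxidase gene, had 6.96, 14.9, 13.7, 10.9 and 9.5 CPM in knockin and 14.5, 13.8, 4.06, 9.75 and 7.17 CPM in wild-type mice, a difference of 0.18 (interval -0.43 to 0.79) beside a response of 6.69. Cdkn1a, whose product p21 stops the cell cycle, had 39.5, 63.2, 61.3, 70.7 and 35.2 CPM in knockin and 81.2, 81.0, 27.6, 69.7 and 44.2 CPM in wild-type mice. In each genotype its values spread over a wide range that overlapped with that of the other, and the difference was -0.16 (interval -0.69 to 0.37) beside a response of 3.53. Hif3a, a hypoxia-inducible factor gene that lacks much of the activating function of its relatives, had 21.9, 23.7, 17.8, 28.5 and 23.1 CPM in knockin and 22.4, 21.3, 17.1, 20.1 and 17.3 CPM in wild-type mice, with a difference of 0.23 (SE 0.13, unadjusted p = 0.09). Pla2g3, a secreted phospholipase gene, differed by 0.34 (interval -0.13 to 0.81) and Map3k6, a stress kinase gene, by 0.01 (interval -0.42 to 0.45). Over the 10 largest rises, which also include Tekt4, Fmo2, Sult1a1 and the xanthine dehydrogenase gene Xdh, the response ran from 2.31 to 6.69 and the genotype difference from -0.16 (Cdkn1a) to 0.34 (Pla2g3). All 10 had overlapping groups and intervals inside 2-fold.

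The genes that feed back on the receptor's action were next. Fkbp5, whose product lowers the receptor's affinity for hormone, had 103, 153, 147, 157 and 108 CPM in knockin and 167, 169, 115, 155 and 119.6 CPM in wild-type mice. Knockin replicates 1 and 5 and wild-type replicates 3 and 5 were low and the other libraries high, so the groups overlapped almost wholly. Its difference was -0.12 (SE 0.29, interval -0.72 to 0.49), and the interval allows up to 45.4% of its response of 1.60. Tsc22d3, which encodes the anti-inflammatory leucine zipper protein GILZ, had 129, 153, 141, 202 and 137 CPM in knockin and 147, 143, 112, 138 and 126 CPM in wild-type mice, with knockin replicate 4 above all others and a difference of 0.20 (SE 0.12, unadjusted p = 0.114). Nfkbia, the inhibitor of NF-kappaB, differed by -0.02 (interval -0.26 to 0.23). Per1, a clock gene with receptor sites, differed by 0.01 (interval -0.08 to 0.11) and Klf9, a transcription factor gene of stress and thyroid signalling, by 0.05 (interval -0.09 to 0.18).

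Sgk1 is a kinase gene that acts on ion channels and transporters, and 1 of its 6 promoter windows holds the motif, as printed above. It had 129, 169.8, 139, 156 and 120.3 CPM in knockin and 161, 165, 105, 151 and 126 CPM in wild-type mice. The groups covered nearly the same range, and the difference of 0.01 (SE 0.11, interval -0.22 to 0.25) allows at most 16.7% of its response of 1.48. The metallothionein gene Mt1, which binds zinc and copper and also holds the motif, had 202, 193, 179.9, 251 and 192 CPM in knockin and 199.8, 211, 181, 177 and 179 CPM in wild-type mice, a difference of 0.10 (interval -0.17 to 0.38). Its neighbour Mt2 differed by 0.19 (interval -0.14 to 0.53).

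Fam107a had groups that did not overlap, which held for 1 of the 34 called targets beside 0.788% of all genes tested. This gene (mm39 chromosome 14, 14151750 to 14173499) encodes an actin-associated protein induced by stress and glucocorticoids, and 2 of its 3 promoter windows hold the motif. It stood at 704, 718, 721, 1042 and 734 CPM in knockin and 621, 645, 602, 549 and 598 CPM in wild-type mice, so every knockin value was above every wild-type value and knockin replicate 4 was the highest. The difference was 0.38 (SE 0.16, interval 0.04 to 0.72, unadjusted p = 0.0315) and did not pass after adjustment. Under PBS the difference was 0.05, and the test of whether the genotypes differ in their response gave 0.33 (unadjusted p = 0.173).

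Targets known from glia, vessels and metabolism had small estimates. Gjb6, which encodes the astrocyte channel protein connexin 30, had 83.7, 90.4, 79.0, 89.7 and 82.4 CPM in knockin and 87.7, 87.4, 85.7, 82.6 and 82.8 CPM in wild-type mice, a difference of 0.00 (interval -0.20 to 0.19) beside a response of 1.40. Mertk, a receptor gene for the uptake of dying cells and synapses, differed by 0.11 (interval -0.03 to 0.24), and Slc2a1, the glucose transporter gene of the blood-brain barrier, by 0.02 (interval -0.29 to 0.33). Agt, the angiotensinogen gene, was at 28.8 ± 4.2 CPM in knockin and 33.1 ± 2.01 CPM in wild-type mice (SD, n = 5 each), a difference of -0.20 (interval -0.44 to 0.04). The metabolic brakes Pdk4, Ddit4 and Txnip, which hold back glucose oxidation, mTOR signalling and thioredoxin, differed by 0.06, 0.02 and 0.03, with intervals of -0.20 to 0.31, -0.24 to 0.27 and -0.29 to 0.35.

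Lcn2, which encodes the iron-trapping protein lipocalin 2, was the target that could not be bounded inside 2-fold. It stood at 1.99, 4.45, 2.81, 4.35 and 3.89 CPM in knockin and 5.36, 15.8, 2.8, 3.61 and 5.77 CPM in wild-type mice, where replicate 2 alone was at 15.8 CPM. Its difference of -0.92 had an interval of -2.43 to 0.59, and the 4 other wild-type values lay within or close to the range of the knockin.

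The bounds can be set against the size of the response, both as log2 fold changes. Over the 34 called genes the largest genotype difference that the interval allows was 29% of the response at the median. It was under 25% for 14 genes and under 50% for 25 genes, and it ran from 6.94% for Plin4 to 151% for Arrdc3, an arrestin-domain gene whose response was 0.29.

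**Figure D2:**
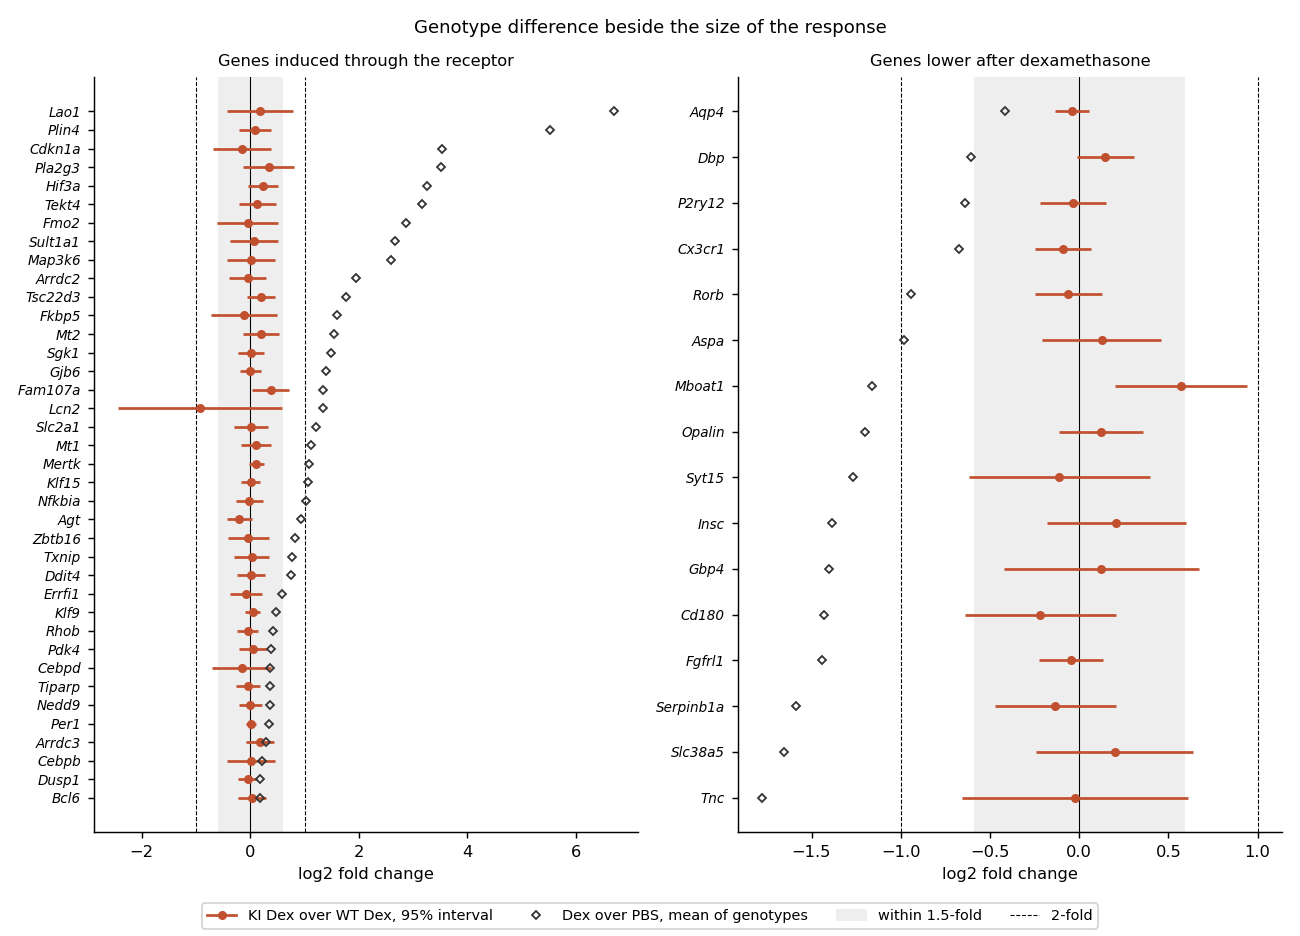
Log2 fold change of knockin over wild-type mice under dexamethasone with its 95% interval (circles and bars) for 38 receptor-induced genes, left, and 16 repressed genes, right, with the average dexamethasone response of both genotypes as diamonds; the grey band is 1.5-fold and dashed lines are 2-fold. Apart from Lcn2, every interval stays within 2-fold, while responses reach 6.69.

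These targets differed from mouse to mouse within each genotype. After centring each of the 34 genes on its mean over the 10 libraries, as log2(CPM + 1), knockin replicates 1 and 5 were below the mean for 25 genes each, knockin replicate 4 for 5 and knockin replicate 2 for 3. Wild-type replicates 3 and 5 were below it for 30 genes each and wild-type replicate 2 for 5. The mean centred value ran from -0.134 to 0.238 in knockin mice and from -0.299 to 0.173 in wild-type mice, so the genotypes overlapped and each held mice with high and mice with low values. The lowest means were those of wild-type replicates 3 and 5, the libraries highest in meningeal markers. Knockin replicates 5 and 1 were at -0.134 and -0.132, with meningeal and vessel-wall sums of 365.0 and 337.5 CPM. Liver marker sums, without Ttr and Trf, were 7.435 and 7.364 CPM in wild-type replicates 3 and 5. They were 9.622, 19.41 and 14.54 CPM in knockin replicates 5, 1 and 3 and 30.24 to 55.69 CPM in the other libraries. The part of either marker group in the result was not tested.

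**Figure D3:**
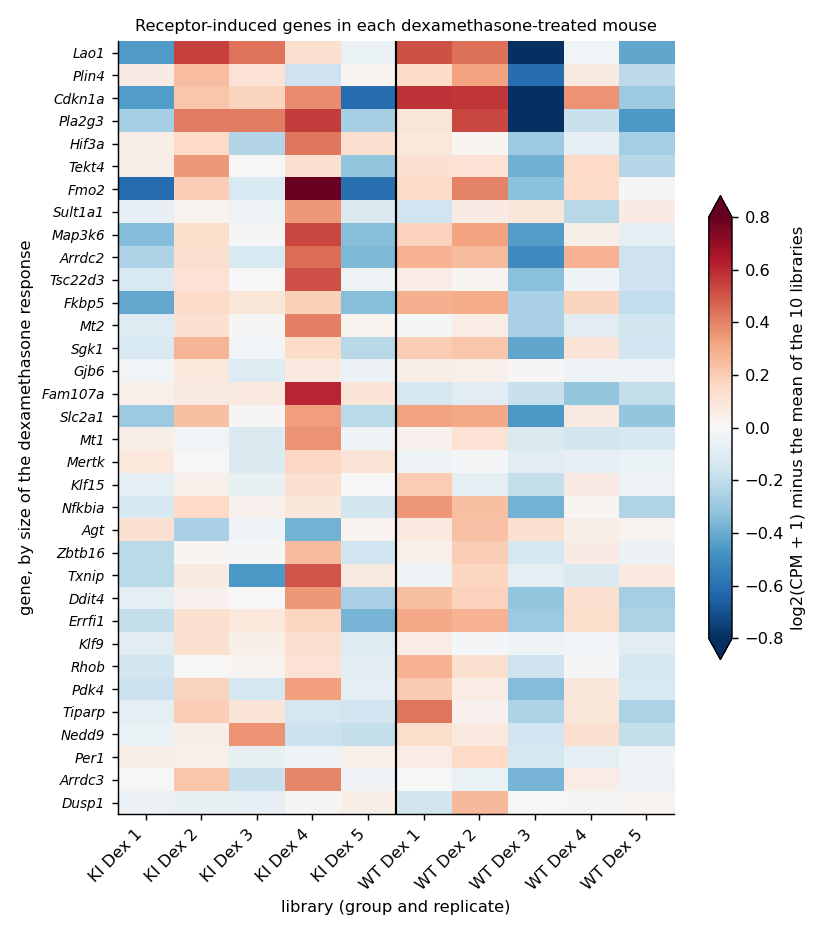
Each called receptor-induced gene (34 rows, ordered by response) in each of the 10 dexamethasone libraries (columns, knockin left of the line), coloured by log2(CPM + 1) minus the gene's mean over the libraries. Several columns are mostly red or mostly blue in both genotypes, with knockin replicate 4 the highest at a mean of 0.238 and wild-type replicate 3 the lowest at -0.299. Knockin replicate 3 and wild-type replicate 4 are mixed, with 19 and 15 of the 34 genes below the mean.

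Genes that dexamethasone lowers were compared in a list of 16, all of which were called lower in the average of both genotypes, with a median response of -1.24. This list too was drawn up with earlier results of these mice known, so its responses are a description. The genotype difference under dexamethasone had a median of -0.03, with 7 above and 9 below 0, and all 16 intervals were inside 2-fold and 9 inside 1.5-fold. Tnc, which encodes the matrix protein tenascin C, had 3.56, 3.19, 5.45, 2.88 and 2.66 CPM in knockin and 3.32, 3.39, 3.35, 3.07 and 4.73 CPM in wild-type mice, a difference of -0.03 (interval -0.66 to 0.61) beside a response of -1.78. The groups overlapped, with the highest value in knockin replicate 3. The tightest bound was that of Fgfrl1, a fibroblast growth factor receptor-like gene, with 6.71, 5.95, 6.13, 7.09 and 6.11 CPM in knockin and 6.36, 6.07, 7.72, 5.99 and 6.75 CPM in wild-type mice, a difference of -0.05 that can be at most 15.8% of its response.

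Glial members of the list gave small differences. These were 0.12 (interval -0.11 to 0.36) for Opalin and 0.13 (interval -0.21 to 0.46) for Aspa, both of oligodendrocytes, and -0.04 (interval -0.14 to 0.06) for Aqp4, the water channel gene of astrocyte endfeet. Cx3cr1 and P2ry12, the fractalkine and ADP receptor genes of microglia, gave -0.09 (interval -0.25 to 0.07) and -0.03 (interval -0.22 to 0.15). Mboat1, a gene for an enzyme that acylates membrane lipids, had the largest difference of the list. It was at 1.91, 1.69, 1.14, 1.58 and 2.02 CPM in knockin and 1.04, 1.21, 1.13, 0.845 and 1.4 CPM in wild-type mice, with knockin replicate 3 inside the wild-type range and the other knockin values above it. The difference was 0.57 (SE 0.18, unadjusted p = 0.00387, adjusted p above the threshold), it was 0.02 under PBS, and the test of the difference in response gave 0.55 (unadjusted p = 0.0266), which did not pass after adjustment.

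**Figure D4:**
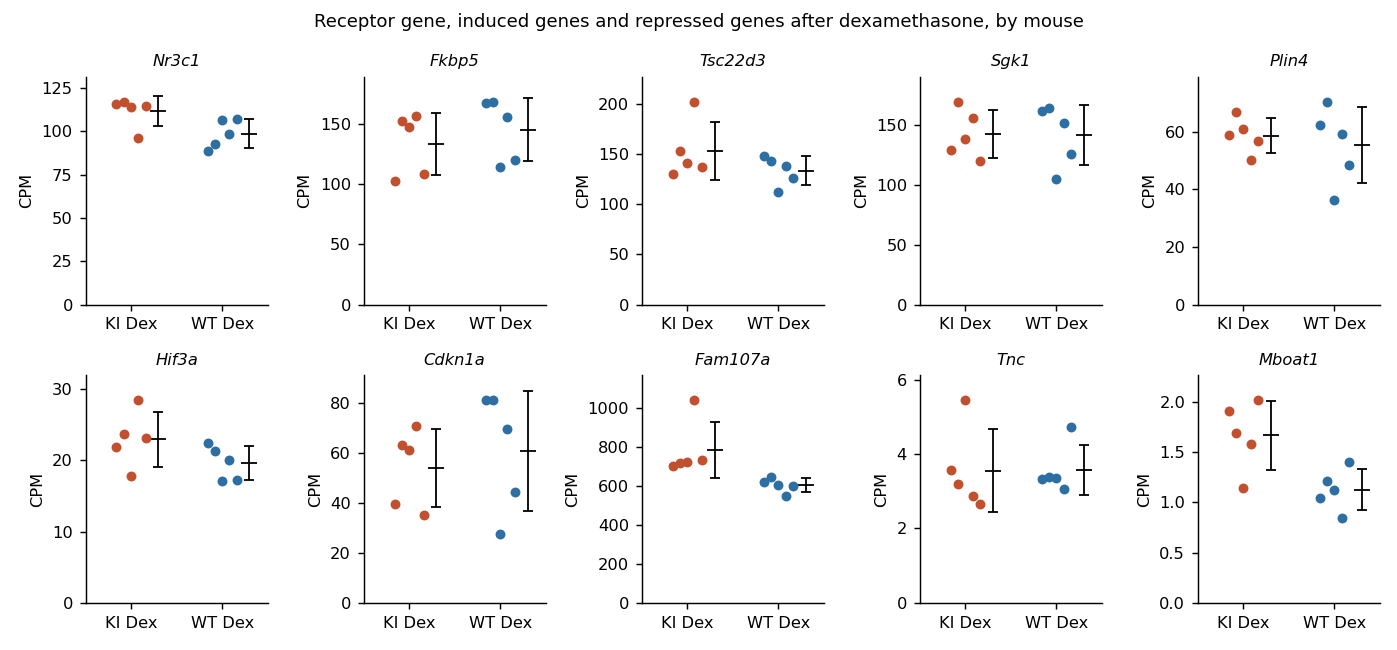
CPM of 10 genes in each dexamethasone-treated mouse (y axis from 0), knockin left and wild type right, 5 points each, with mean and SD as bars. Fam107a is the only one of these genes whose groups do not overlap. For the others the groups overlap, to an extent that differs from gene to gene.

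The receptor's own transcript had the largest difference among the 17 tested receptor and cochaperone genes, higher in the knockin, and was not called. Nr3c1 had 116, 117, 114, 96.1 and 115 CPM in knockin and 88.6, 92.6, 107, 98.3 and 107 CPM in wild-type mice. Knockin replicate 4 lay inside the wild-type range and the other 4 knockin values lay above it, so the groups overlapped. The difference was 0.18 (SE 0.11, interval -0.06 to 0.41, unadjusted p = 0.128), and under PBS it was 0.26 (unadjusted p = 0.026). Nr3c2, the gene of the mineralocorticoid receptor, averaged 240.2 ± 19.3 CPM in knockin and 252 ± 20.1 CPM in wild-type mice (SD, n = 5 each), a difference of -0.07 (interval -0.36 to 0.23). Hsd11b1, whose enzyme regenerates active glucocorticoid inside cells, differed by -0.15 (interval -0.30 to 0.01).

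Of 17 tested genes for receptors and cochaperones 17 had intervals inside 2-fold, 16 of them inside 1.5-fold. The heat shock protein 90 genes that hold the receptor in its hormone-binding state had small estimates, with Hsp90ab1 at 1684 ± 25.8 CPM in knockin and 1664 ± 43.9 CPM in wild-type mice and a difference of 0.02 (interval -0.04 to 0.08). Ptges3, the gene of the p23 cochaperone that stabilizes this complex, had 59.5, 55.6, 57.5, 60.9 and 57.2 CPM in knockin and 55.2, 53.0, 54.5, 51.4 and 56.0 CPM in wild-type mice. Its values overlapped only between knockin replicate 2 and wild-type replicate 5, the difference was 0.11 (SE 0.04, unadjusted p = 0.00997), and it was 0.12 under PBS (unadjusted p = 0.00375). Neither passed after adjustment. Of 20 coactivator and corepressor genes all 20 were inside 1.5-fold and 16 were below 0, with a median of -0.02. Ep300, the gene of the acetyltransferase p300, had 82.9, 83.3, 85.1, 85.6 and 82.6 CPM in knockin and 89.4, 88.9, 87.0, 86.6 and 97.4 CPM in wild-type mice, without overlap, a difference of -0.10 (SE 0.04, unadjusted p = 0.015).

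Most transcripts of nerve cells had intervals inside 1.5-fold, as most genes that are not scarce did. In 6 lists of glutamate receptor, GABA, interneuron, CA1, CA2 and CA3, and dentate granule cell genes, 95 distinct genes were tested. Of these 90 had intervals inside 1.5-fold, beside 80.6% of all genes and 97.1% of genes with a mean log2 CPM of at least 1. None of the 95 reached an unadjusted p below 0.05 by edgeR, beside 4.44% of all genes. After adjustment 0 were called, as among all genes tested. All 29 glutamate receptor and postsynaptic genes and all 20 GABA genes were inside 1.5-fold. Grin2b, an NMDA receptor subunit gene, had the largest difference of the first of these lists, -0.10 (interval -0.24 to 0.03), and Abat, the GABA-degrading transaminase gene, that of the second, 0.07 (interval -0.03 to 0.17). Sst, the somatostatin gene of a class of interneurons, averaged 141 ± 9.02 CPM in knockin and 145 ± 9.88 CPM in wild-type mice (SD, n = 5 each), a difference of -0.04 (interval -0.14 to 0.05).

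Immediate-early genes were bounded less closely than all genes of a like level. Their median SE was 0.131 at a median log2 CPM of 5.18, beside 0.0549 for all genes at 4 to 6. Of 20 immediate-early genes 19 were inside 1.5-fold and 14 were above 0. Arc, whose product regulates AMPA receptor uptake, had 78.3, 67.6, 75.5, 62.6 and 79.5 CPM in knockin and 67.9, 72.9, 56.0, 51.5 and 60.6 CPM in wild-type mice, a difference of 0.23 (interval -0.04 to 0.51). Egr2, a zinc finger factor gene at 0.726 ± 0.264 CPM in knockin and 0.418 ± 0.129 CPM in wild-type mice (SD, n = 5 each), differed by 0.81 (interval 0.14 to 1.48, unadjusted p = 0.0195 by edgeR). Bdnf, the brain-derived neurotrophic factor gene, had 49.4, 47.8, 38.1, 50.4 and 52.2 CPM in knockin and 45.4, 38.2, 45.9, 38.1 and 46.6 CPM in wild-type mice, a difference of 0.15 (interval -0.01 to 0.30), and all 16 tested neurotrophic genes were inside 1.5-fold. The 19 clock genes were too, with Dbp the farthest from 0 at 0.15 (interval -0.01 to 0.31). For 15 adult neurogenesis genes the median was 0.00, and Mki67, the gene of the proliferation marker Ki-67, differed by 0.14 (interval -0.11 to 0.38).

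Markers of glia were bounded inside 1.5-fold. Fewer cells of a type and less RNA per cell cannot be told apart in bulk tissue. All 14 astrocyte, 16 myelin, 10 oligodendrocyte precursor and 15 microglial genes had intervals inside 1.5-fold. Slc1a2, the main glutamate transporter gene of astrocytes, had 4581, 4671, 4618, 5109 and 4833 CPM in knockin and 4653, 4539.7, 4613, 4399 and 4563 CPM in wild-type mice, a difference of 0.06 (interval 0.00 to 0.13). Of the myelin genes 14 of 16 were above 0 with a median of 0.05, and the library lowest in myelin markers, wild-type replicate 3, sits in the wild type. Its part in that result was not tested. Of the microglial genes 12 of 15 were below 0 with a median of -0.04. C1qc, a gene of the complement component that tags synapses, differed by -0.16 (SE 0.06, interval -0.28 to -0.04, unadjusted p = 0.012).

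Of the 34 gene lists examined, 29 had a median within 0.1 of 0 and 5 lay farther out: MHC class II, vessel wall and meninges, choroid plexus, red blood cell and liver. The MHC class II genes encode the proteins by which macrophages, dendritic cells and B cells show peptides to T cells, and in the brain they are found mostly at its borders. Of 7 tested, 6 had estimates below 0 with a median of -0.50, 3 had an unadjusted p below 0.05 (42.9%, beside 4.44% of all genes) and 0 were called. Cd74, the gene of the invariant chain that escorts these proteins, had 2.26, 3.33, 2.13, 2.74 and 2.61 CPM in knockin and 4.4, 5.43, 6.52, 4.15 and 6.08 CPM in wild-type mice, so every knockin value was below every wild-type value. The difference was -1.05 (SE 0.29, interval -1.65 to -0.45, unadjusted p = 0.00178). In the fit to the 10 dexamethasone libraries alone the same difference had an SE of 0.15 and an adjusted p of 0.0211 by edgeR over 17792 genes. With the replicate number as a block in those 10 libraries it was -1.02 (SE 0.14) with an adjusted p of 0.0619 by edgeR, so the call was lost there.

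Its partners followed in part. H2-Aa, an alpha chain gene (mm39 chromosome 17, 34501718 to 34506797), had 0.881, 1.31, 0.831, 0.737 and 1.43 CPM in knockin and 1.5, 1.53, 2.12, 1.77 and 2.7 CPM in wild-type mice, again without overlap, a difference of -0.93 (SE 0.30, unadjusted p = 0.00577). H2-Ab1, the gene of its beta chain, had 0.587, 0.656, 0.416, 0.666 and 1.77 CPM in knockin and 1.43, 1.47, 2.05, 0.691 and 2.39 CPM in wild-type mice, a difference of -1.07 (SE 0.39), and its groups overlapped. H2-DMa, whose product loads the peptide, was at -0.004 (interval -0.20 to 0.20) and counts among the 6 below 0. H2-Eb1 and H2-DMb1 were at -0.50 and -0.33 (unadjusted p = 0.07 and 0.125 by edgeR). Of the 7 genes Ciita alone was above 0, at 0.13 (unadjusted p = 0.504 by edgeR). Under PBS the differences of Cd74, H2-Aa and H2-Ab1 were 0.42, 0.37 and 0.00. The test of the difference in response gave -1.47 for Cd74 (unadjusted p = 0.00134) and -1.30 for H2-Aa (unadjusted p = 0.00403), and neither passed after adjustment.

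Markers of the meninges and vessel walls were also mostly lower in estimate, and their part in the class II values was not tested. Of 15 such genes 13 had estimates below 0, with a median of -0.45. Of the 15, 5 had an unadjusted p below 0.05 (33.3%, beside 4.44% of all genes) and 0 were called, and their summed level ran from 332.2 to 365.0 CPM in the knockin and from 328.6 to 457.3 CPM in the wild type. Igf2, a growth factor gene of meninges and choroid plexus, had 1.89, 2.67, 2.13, 2.07 and 2.51 CPM in knockin and 2.55, 3.07, 6.08, 2.61 and 4.21 CPM in wild-type mice, a difference of -0.77 (SE 0.25). Aldh1a2, a retinoic acid synthesis gene, had 5.72, 4.87, 4.21, 5.3 and 4.63 CPM in knockin and 4.94, 6.65, 13.3, 3.61 and 11.4 CPM in wild-type mice, where replicates 3 and 5 alone stood above the knockin range by a wide margin. Col1a2, a fibroblast collagen gene, had 15.8, 15.0, 15.4, 17.7 and 15.6 CPM in knockin and 15.5, 19.3, 34.6, 16.7 and 33.0 CPM in wild-type mice, with the same 2 high wild-type libraries. Rgs5, a pericyte gene, was at -0.05 (interval -0.21 to 0.10).

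Without wild-type replicates 3 and 5, a check added after seeing the data, the median of the 15 meningeal and vessel-wall genes was -0.02 and 9 were below 0. In that same fit Cd74 was at -0.84 (SE 0.35, unadjusted p = 0.0278), H2-Aa at -0.64 (unadjusted p = 0.0886) and H2-Ab1 at -0.64 (unadjusted p = 0.178), all by edgeR, and the median of the 7 class II genes was -0.16. The 2 libraries were left out for their high sum over the same 15 markers, so a meningeal median nearer to 0 follows from that choice. Without knockin replicate 2 and wild-type replicate 2, also a check added after seeing the data, the class II median was -0.54 and the meningeal one -0.43. That fit called 0 genes. The fit without wild-type replicates 3 and 5 called 2 genes at an adjusted p below 0.05 by edgeR. These were Fam20a at 0.49 (adjusted p = 0.0267) and an identifier without a symbol, ENSMUSG00000118669.2, at -0.38 (adjusted p = 0.0064).

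**Figure D5:**
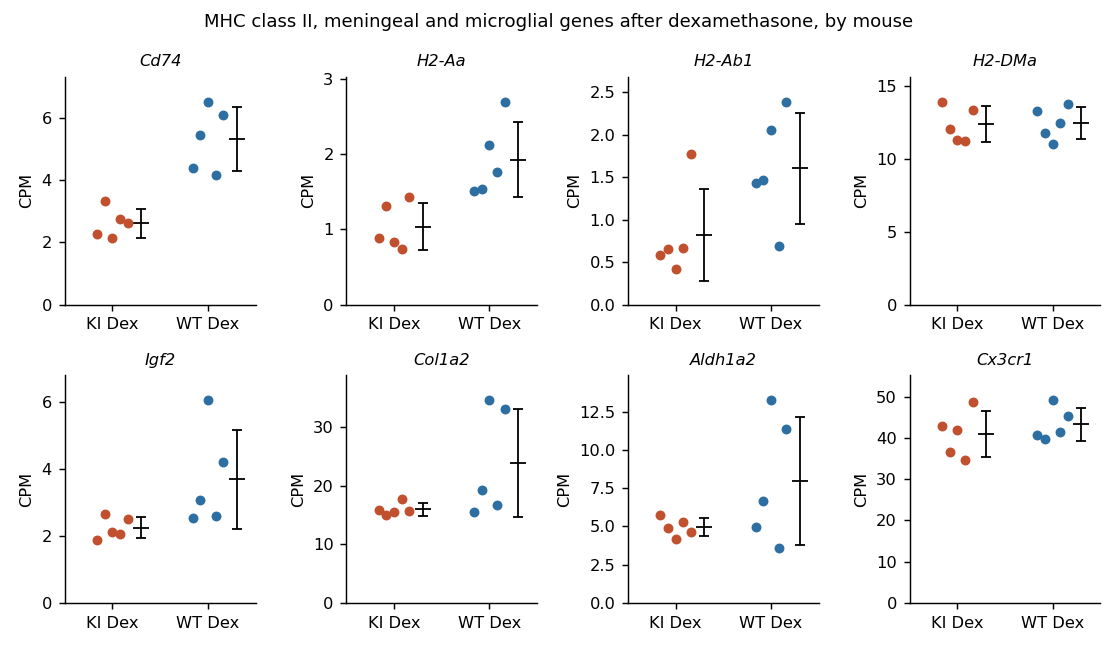
CPM of 8 genes in each dexamethasone-treated mouse (y axis from 0), knockin left and wild type right, 5 points each, with mean and SD as bars. Cd74 and H2-Aa do not overlap between the genotypes, Igf2, Col1a2 and Aldh1a2 are highest in wild-type replicates 3 and 5, and H2-DMa and Cx3cr1 overlap between the genotypes.

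Immune signalling genes outside that group were mostly low and loosely bounded. Of 15 tested interferon response genes 14 were inside 2-fold, with a median of 0.03. Ifit1, an antiviral gene at 1.03 ± 0.253 CPM in knockin and 1.45 ± 0.356 CPM in wild-type mice (SD, n = 5 each), differed by -0.53 (interval -1.03 to -0.04), and Ifitm3, which blocks viral entry, by -0.28 (interval -0.55 to -0.01). Of 20 inflammation genes 12 passed the filter on low counts, and among those that did not were Il1b, Il6, Tnf and Ccl2. The 12 had a median of -0.04 and no member at an unadjusted p below 0.05 by edgeR.

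Choroid plexus, liver and blood transcripts had wide intervals. Of 14 choroid plexus genes 13 were above 0 with a median of 0.82, but 1 had an interval inside 2-fold and none reached an unadjusted p below 0.05. Ttr, the transthyretin gene of choroid plexus and liver, had 35.1, 1273, 138, 80.3 and 24.5 CPM in knockin and 41.5, 329, 39.9, 72.0 and 33.6 CPM in wild-type mice, so that knockin replicate 2 stood far above the rest and the interval ran from -1.09 to 4.30. Liver transcripts such as Fga, a fibrinogen gene at 0.86, 2.95, 0.883, 2.56 and 0.837 CPM in knockin and 1.39, 4.03, 0.512, 3.61 and 0.312 CPM in wild-type mice, varied from mouse to mouse in both genotypes. All 6 red blood cell genes had estimates below 0 with a median of -0.37, led in level by Hbb-bs, a beta globin gene with 53.9, 80.0, 90.4, 96.3 and 128 CPM in knockin and 62.4, 121, 108, 67.9 and 226 CPM in wild-type mice and a difference of -0.40 (interval -1.14 to 0.35). Its highest value was that of wild-type replicate 5, and reads of near-identical globin copies may be split by the counting.

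Genes of lipid metabolism differed by small amounts. Of 18 cholesterol and fatty acid genes all 18 were inside 1.5-fold, 4 had an unadjusted p below 0.05 (22.2%, beside 4.44% of all genes) and 13 were above 0. Abca1, the cholesterol efflux pump gene, had 55.3, 66.2, 64.3, 49.8 and 49.0 CPM in knockin and 83.7, 77.4, 58.4, 78.4 and 66.0 CPM in wild-type mice, a difference of -0.35 (SE 0.11, unadjusted p = 0.00387). Wild-type replicates 3 and 5 lay within the knockin range and the other 3 lay above it. Srebf1, the gene of the factor SREBP1 that drives fatty acid synthesis, had 43.2, 42.4, 43.5, 38.8 and 41.8 CPM in knockin and 52.0, 51.2, 47.8, 47.8 and 44.9 CPM in wild-type mice, without overlap, a difference of -0.22 (SE 0.06, unadjusted p = 0.000618). Acaca, the acetyl-CoA carboxylase gene and a SREBP1 target, differed by -0.11 (interval -0.21 to -0.02) and Idi1, of cholesterol synthesis, by 0.29 (interval 0.02 to 0.56). Under PBS the differences of Abca1 and Srebf1 were -0.06 and -0.04.

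The genes with the largest separated differences came from many functions. Among genes with a mean log2 CPM of at least 1 and no overlap between the groups, the 8 highest in knockin mice were Mroh2a (0.61), Dcdc2b (0.55), Fam107a, Fam161a (0.35), Cgas (0.34), Kirrel2 (0.32), Mbd4 (0.29) and Rhobtb1 (0.28). Kirrel2, an immunoglobulin-type adhesion protein gene, was itself induced by dexamethasone (1.97) and had 28.4, 28.5, 36.4, 31.5 and 27.8 CPM in knockin and 27.6, 26.0, 21.5, 25.1 and 22.4 CPM in wild-type mice. Cgas encodes the sensor of cytosolic DNA, and Mbd4 a glycosylase that repairs mismatches at methylated sites, at 9.46, 8.67, 8.99, 8.77 and 10.9 CPM in knockin and 6.56, 8.31, 8.09, 7.68 and 7.79 CPM in wild-type mice. The 8 lowest were Cd74, H2-Aa, Ptgis (-0.75), Ptpn6 (-0.47), Lrrk1 (-0.40), Frmd3 (-0.39), P4ha3 (-0.33) and Sox13 (-0.32). Ptgis encodes prostacyclin synthase and had 1.53, 1.36, 2.44, 2.03 and 1.43 CPM in knockin and 2.51, 3.13, 3.69, 2.53 and 2.7 CPM in wild-type mice. Ptpn6, the SHP-1 phosphatase gene of blood-derived and microglial cells, had 2.62, 2.53, 2.55, 2.14 and 2.86 CPM in knockin and 3.24, 3.45, 3.72, 2.92 and 4.1 CPM in wild-type mice, a difference with an SE of 0.11 and an unadjusted p of 0.000346 by edgeR.

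Some of the smallest p-values belonged to genes with small differences, which were picked out after their values were seen. Fam20a, a pseudokinase gene of the secretory pathway, had 13.0, 15.8, 13.4, 16.7 and 14.6 CPM in knockin and 10.6, 10.8, 13.2, 9.91 and 12.6 CPM in wild-type mice, a difference of 0.35 (SE 0.08, unadjusted p = 0.000111). Vim, the vimentin gene of astrocytes, vessels and meninges, had 45.7, 49.9, 49.4, 44.6 and 50.9 CPM in knockin and 55.3, 64.6, 55.9, 53.9 and 58.1 CPM in wild-type mice, without overlap, a difference of -0.26 (SE 0.06, unadjusted p = 0.000189). Srsf1, a splicing factor gene, had 166, 176, 174, 178 and 170.0 CPM in knockin and 161, 156, 153, 161 and 153 CPM in wild-type mice, also without overlap, a difference of 0.14 (SE 0.04, unadjusted p = 0.000568). The adjusted p of each was 0.979.

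Genes that flank the altered locus were counted apart from the rest. Within 10 Mb of Nr3c1, 206 genes were tested, 6 had an unadjusted p below 0.05 (2.91%, beside 4.44% of all genes), 0 were called and 202 were inside 2-fold. The 6 were Pcdhb13 (-0.27), Hbegf (-0.19), Cystm1 (-0.13), Ndufa2 (-0.11), Brd8 (0.08) and Rit2 (0.10). Cd74 is on the same chromosome as Nr3c1 but outside that window. Nnt, a mitochondrial gene that is partly deleted in the C57BL/6J substrain, was at 0.331 ± 0.0978 CPM in knockin and 0.499 ± 0.0791 CPM in wild-type mice (SD, n = 5 each), a difference of -0.54 (interval -1.18 to 0.09).

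Some of the narrowest intervals were those of energy genes. Atp5b and Atp5a1, subunit genes of ATP synthase, differed by 0.00 (interval -0.05 to 0.06) and 0.01 (interval -0.04 to 0.07), and Pfkm, a glycolysis gene, by 0.02 (interval -0.03 to 0.08). The most abundant transcript, mt-Co1 of the mitochondrial genome, was at 21972 ± 1059 CPM in knockin and 21780.0 ± 2049 CPM in wild-type mice (SD, n = 5 each), a difference of 0.01 (interval -0.12 to 0.14).

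The same genotype comparison without hormone gave a like count. Under PBS edgeR called 0 genes of 18648 (0%), with 673 (3.61%) at an unadjusted p below 0.05. DESeq2, on 39194 genes, and limma-voom, on 18648, called 0, with 787 and 610 below 0.05 before adjustment. Across genes the genotype differences under dexamethasone and under PBS, which share no libraries but come from 1 fit, had a Pearson correlation of 0.0303 over 18648 genes and 0.024 over the 14328 genes with a mean log2 CPM of at least 1. Genes are not independent replicates, so this is a description. The test of whether the response to dexamethasone differs between the genotypes called 0 genes (527, or 2.83%, at an unadjusted p below 0.05). The average genotype difference over both treatments also called 0, with 953 (5.11%) at an unadjusted p below 0.05. Its smallest p was that of Dpysl2 (0.17, unadjusted p = 1.13e-05, adjusted p = 0.211 by edgeR), which was called in 3 of the alternative fits. Dpysl2 encodes the axon growth protein CRMP2 and had 168, 146, 169, 153 and 163 CPM in knockin and 146, 142, 142, 144 and 142 CPM in wild-type mice under dexamethasone, a difference of 0.16 (SE 0.04), and 0.18 under PBS.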

How the data were processed

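Hippocampal poly(A) RNA was sequenced in 75-base paired-end reads on an Illumina instrument, per the labels' protocols. Per the file headers, the authors deposited raw counts of read pairs per gene, made with featureCounts 2.0.6 on GENCODE M34 and with no strand option recorded. The submitters' processing notes name STAR 2.5.1, Subread 1.5.1, DESeq2 1.38.3 and mm39. Reads of overlapping or antisense genes can therefore not be told apart.

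Of 57126 gene identifiers 51884 matched a symbol, and the other 5242 held 0.264 to 0.337% of counts. All 20 libraries entered 1 fit with a coefficient per group (edgeR 4.0.16 in R 4.3.3, TMM scaling, filterByExpr with a minimum count of 10 and a minimum total of 15, robust quasi-likelihood, Benjamini-Hochberg adjustment), which left 18648 genes, 16 residual degrees of freedom and a common biological coefficient of variation of 7.08%. Intervals are the coefficient plus or minus the t quantile times its SE. DESeq2 1.42.0 and limma 3.58.1 were alternatives. The scripts were tested on simulated data. Library totals limit precision, and the per-gene intervals carry it. The labels call the mice biological replicates.

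The gene lists and the part of the series examined were chosen with earlier results of these data known. Named genes were the receptor gene, members of the target, repressed and cochaperone lists, the largest responders, the lowest unadjusted p and most abundant members of other lists, the largest non-overlapping differences, flanking genes below 0.05, and the narrowest, widest and most abundant; others are said to be picked after their values were seen.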

Additional observations from a re-analysis of the deposited data

Results flagged for a closer look

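In 202 groups of 5 mice, covering 101 measures, 17 held a library whose gap to its nearest neighbour was over 0.71 of the group's range. Chance flags about 1 in 20 groups. Each ratio of gap to range follows.

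Knockin replicate 4 stood apart in 6 genes. It was the highest for Fam107a (1042 CPM against 704 to 734 CPM in the other knockin mice, ratio 0.911), for Abat (0.915) and for Col1a2 (0.731). It was the lowest for Nr3c1 (96.1 CPM against 114 to 117 CPM, ratio 0.838), for Nr3c2 (0.754) and for Rgs5 (0.714). Knockin replicate 5 was the highest for H2-Ab1 (1.77 CPM against 0.416 to 0.666 CPM, ratio 0.815) and for Ifitm3 (0.891).

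Choroid plexus transcripts set replicate 2 apart in both genotypes. Their sum was 2135 CPM in knockin replicate 2 against 207.3 to 368.6 CPM in the other knockin mice (ratio 0.916), and 678.5 CPM in wild-type replicate 2 against 219.5 to 316.2 CPM in the other wild-type mice (0.789). For Ttr the ratios were 0.909 in the knockin and 0.87 in the wild type.

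In the wild type, replicate 3 was the lowest in summed myelin markers (ratio 0.896) and the highest for Ifit1 (0.886). Replicate 5 was the highest for Ep300 (0.742) and for Tnc (0.81), and replicate 2 for Lcn2 (15.8 CPM against 2.8 to 5.77 CPM, ratio 0.772).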

How the results depend on the processing

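For the knockin against the wild type under dexamethasone, 0 genes were called with DESeq2 size factors, without TMM, with DESeq2's Wald test, with limma-voom, with no filter and with at least 50 counts in 5 libraries. Leaving out each of the 10 dexamethasone libraries in turn called 0 to 0 genes, with 694 to 944 at an unadjusted p below 0.05, and 14520 to 14745 intervals inside 1.5-fold and 17475 to 17725 inside 2-fold. The 10 dexamethasone libraries alone called 1 gene, Cd74. Without wild-type replicates 3 and 5, which was added after seeing the data, the fit called 2, Fam20a and ENSMUSG00000118669.2. Without knockin replicate 2 and wild-type replicate 2, likewise added later for their choroid plexus transcripts, 0 genes were called (697 at an unadjusted p below 0.05), with 14456 intervals inside 1.5-fold and 17554 inside 2-fold. The average over both treatments called 1 gene, Dpysl2, with DESeq2's Wald test, 1 with no filter and 0 to 1 when leaving out a library, the 1 without knockin replicate 2. The cause of these changes was not tested. With 99% intervals 13658 genes were inside 1.5-fold and 16821 inside 2-fold. The count of dexamethasone responders ranged from 2845 to 3592. Replicate numbers do not pair mice by any label, and 2 of 5 knockin libraries correlated best with the wild-type library of their own number. With the replicate block 0 genes were called in all 20 libraries (786 at an unadjusted p below 0.05) and 0 in the 10 dexamethasone libraries (642), with 14966 and 14884 intervals inside 1.5-fold. No named gene reversed direction past a threshold in any setting. The genotype comparisons called at most 2 genes in any setting, so such a reversal could hardly be seen and its absence says little. Low counts limit the bounds: below a mean log2 CPM of 0, 8.17% of intervals were inside 1.5-fold.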
